A study of Mus musculus with 9 samples.

Results

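The genes described here are actin genes grouped under the positioning of the meiotic spindle at the egg cortex. They were chosen by name: Fmn2, Spire1, Spire2, Myo10, Cdc42, Rhoa, Arpc2, Actr2 and Actr3, through every probe set annotated to exactly 1 of these 9 symbols. The rule found 9 probe sets for 8 of the genes, out of 35557 probe sets and 19938 genes on the array. Rhoa has 2 probe sets, and Actr2, the Arp2 subunit of the Arp2/3 complex, is not reported because no probe set is annotated to it alone in the annotation used here.

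RNA was measured in metaphase II eggs (ovulated oocytes arrested in the second meiotic division) of 3 genotypes, with 3 biological replicate arrays each: Dicer knockout, Dgcr8 knockout and wild type, all labelled C57BL/6. All females were primed with pregnant mare serum gonadotropin (7.5 IU) and then human chorionic gonadotropin (hCG, 7.5 IU). Eggs are labelled as taken 16 h after hCG, while the protocol gives 14 to 16 h, and were freed of cumulus cells with hyaluronidase. Dicer cuts microRNA hairpins and long double-stranded RNA into small RNAs, and Dgcr8 acts in the earlier microRNA step. The design thus sets the loss of a microRNA factor beside the loss of a factor that serves both classes. Which class of small RNA lies behind a change was not tested. The promoter that drove any Cre, the extent of the deletions, the ages of the females and the number of eggs per array are not stated in the labels used here.

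In mouse oocytes the spindle forms near the centre and is carried to the cortex by a cytoplasmic actin mesh, which Formin-2 and the Spire proteins nucleate together. Once there, the chromatin turns on Cdc42 and through it the Arp2/3 complex, which grows a branched actin cap above the spindle. RhoA controls the contractile ring that pinches off the polar body. These are background facts on the proteins and were not measured by the arrays, which read messenger RNA.

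Values are log2 signals made by the submitters with GCRMA, so a difference of 1 is 2-fold, and levels are compared between arrays for 1 probe set and never between genes. A gene was called when limma's test, fitted to all 9 arrays and 17324 genes, gave a Benjamini-Hochberg adjusted p under 0.05. Each targeted gene was lower in its own knockout than in wild-type eggs. The Dicer1 log2 signal was 10.57 to 10.82 in Dicer knockout eggs, against 11.66 to 11.67 in wild-type eggs, and the Dgcr8 signal was 5.47 to 5.98 in Dgcr8 knockout eggs, against 8.85 to 9.05 in wild-type eggs. Dicer knockout eggs had a Dgcr8 signal of 8.28 to 8.72, below every wild-type array, but this did not pass limma's test. It passed in 4 of 19 alternative fits, and 16.1% of all genes tested were lower without overlap in this comparison. Replicate arrays correlated at r of 0.9910 to 0.9928 in Dicer knockout, 0.9937 to 0.9944 in Dgcr8 knockout and 0.9947 to 0.9956 in wild-type eggs. The 12 oocyte markers had an array median of 11.9 to 12.1, and the 16 measured cumulus and granulosa markers one of 4.84 to 5.03. Within the cumulus and granulosa list, Nr5a2 (mean 9.39 in Dicer knockout and 9.80 in wild-type eggs) and Gata4 (8.62 and 8.03) were far above that median. The log2 of the summed signal of 8 immune and blood markers, 1 of which stayed below 4 on all 9 arrays, was 8.40 to 8.90 in Dicer knockout eggs, against 8.09 to 8.34 in wild-type eggs. The log2 of the summed signal of 11 oviduct and stromal markers was 10.1 to 10.2 in Dicer knockout eggs, against 10.4 to 10.5 in wild-type eggs. Such sums weigh the brightest marker most. That was Cd68 for the immune list (mean 7.40 in Dicer knockout and 6.44 in wild-type eggs) and Myh11 for the oviduct list (9.30 and 9.75). In Dicer knockout against wild-type eggs 1 of 12 oocyte, 1 of 15 cumulus and granulosa and 1 of 7 immune markers tested rose, and 1 of 11 oviduct and stromal markers fell. Their part in the changes below was not tested.

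All 8 measured members were well above the signal floor of 4 and entered the test. In Dicer knockout eggs 2 of the 8 fell, Myo10 and Spire2, none rose, and the other 6 did not pass. That is 25% of the members, against 11.3% of all genes tested that were called either way and 6.47% that were called lower. A count of 2 among 8 genes is a result about Myo10 and Spire2, not about the group. In Dgcr8 knockout eggs 0 of 8 members passed limma's test, 0 had an unadjusted p under 0.05, and the lowest unadjusted p was 0.167. Over all genes 0.0231% were called in that comparison and 2.64% had an unadjusted p under 0.05. Set directly against Dgcr8 knockout eggs, Dicer knockout eggs again had 2 of 8 members lower, the same Myo10 and Spire2, where 13.4% of all genes were called, 7.92% as lower. The last comparison shares the Dicer knockout arrays with the first.

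**Figure D1:**
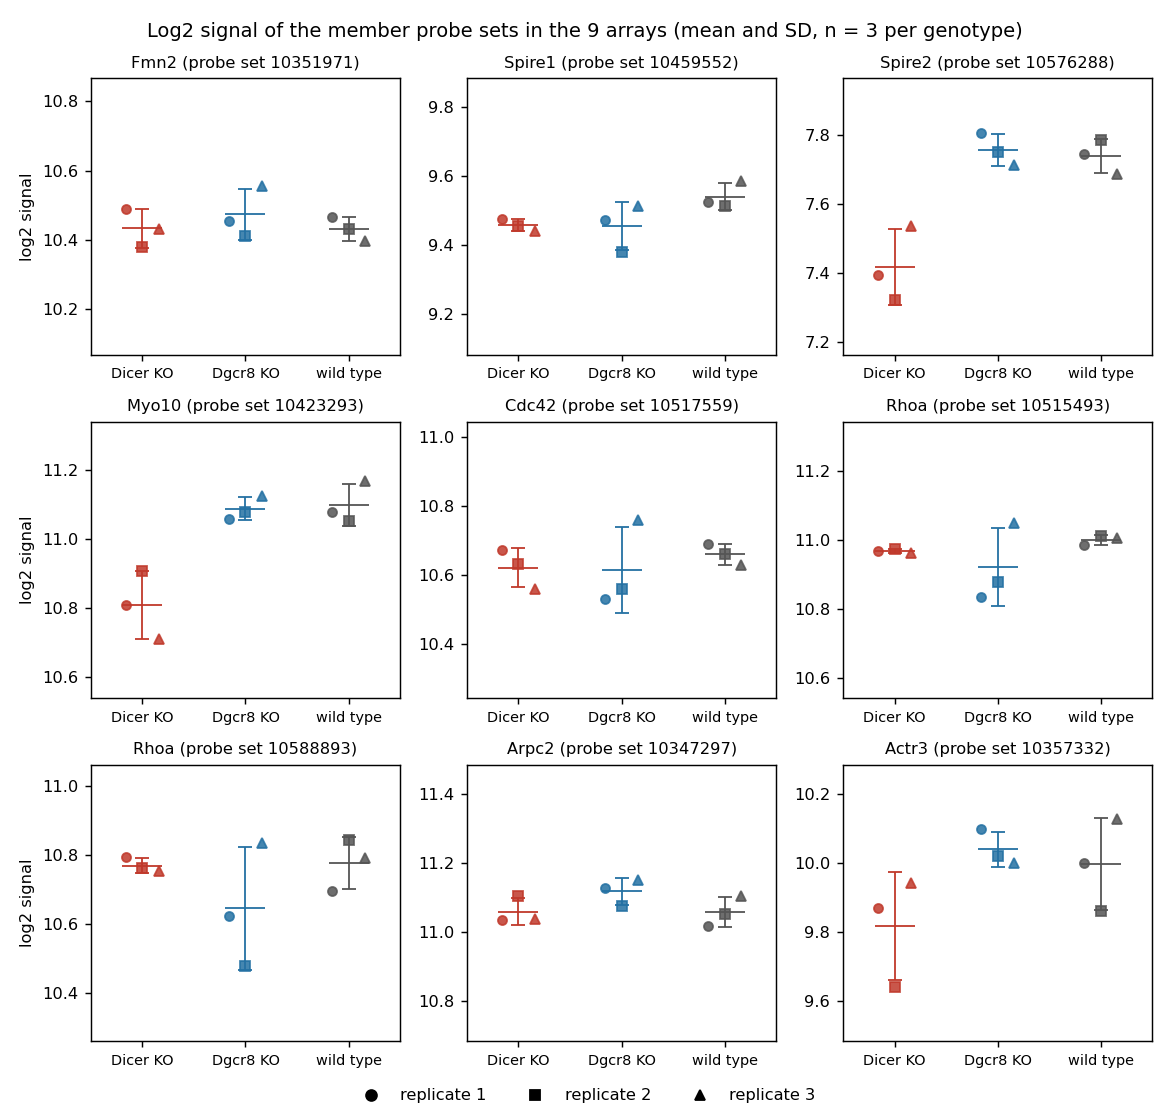
Log2 signal of the 9 member probe sets in Dicer knockout, Dgcr8 knockout and wild-type eggs, 1 marker per array, with the mean and SD (n = 3). Every panel spans 0.8 on the log2 axis: the Dicer knockout arrays of Spire2 and Myo10 sit below the other 6 arrays, while the 3 genotypes overlap for Fmn2, Cdc42 and Arpc2.

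Myo10 (Entrez gene 17909, probe set 10423293) encodes myosin X, an unconventional myosin whose tail binds microtubules and which in Xenopus eggs links the spindle to actin. Whether mouse eggs need myosin X to position the spindle was not tested here. The Myo10 log2 signal was 10.81, 10.91 and 10.71 in the 3 Dicer knockout arrays, 11.06, 11.08 and 11.12 in the Dgcr8 knockout arrays, and 11.08, 11.05 and 11.17 in the wild-type arrays. Every Dicer knockout array lay below all 6 others, and the Dgcr8 knockout and wild-type values were interleaved. Myo10 averaged 10.81 ± 0.10 in Dicer knockout and 11.10 ± 0.06 in wild-type eggs (SD, n = 3 each), a log2 change of -0.29 with an SE of 0.06 (limma adjusted p 0.00733). The signal was 1.22-fold lower, with a 95% interval of 1.12- to 1.33-fold. Against Dgcr8 knockout eggs, which averaged 11.09 ± 0.03 (SD, n = 3), the log2 change in Dicer knockout eggs was -0.28 ± 0.06 (SE; limma adjusted p 0.00827). Between Dgcr8 knockout and wild-type eggs the Myo10 change was -0.012, with a 95% interval of -0.13 to 0.11. Both Myo10 calls held with any 1 array left out, at adjusted p up to 0.0368 and 0.0354.

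Spire2 (Entrez gene 234857, probe set 10576288) encodes a nucleator that binds actin monomers through WH2 domains and works with formins at vesicle membranes. The Spire2 signal was 7.39, 7.32 and 7.54 in Dicer knockout arrays, 7.80, 7.75 and 7.71 in Dgcr8 knockout arrays, and 7.75, 7.78 and 7.69 in wild-type arrays. As with Myo10, the 3 Dicer knockout values were the lowest of the 9. Means were 7.42 ± 0.11 in Dicer knockout and 7.74 ± 0.05 in wild-type eggs (SD, n = 3 each), a log2 change of -0.32 ± 0.09 (SE), or 1.25-fold lower with a 95% interval of 1.09- to 1.43-fold (limma adjusted p 0.0419). Against Dgcr8 knockout eggs the change was -0.34 ± 0.09 (SE; limma adjusted p 0.0297). The Spire2 fall kept its direction but not its call in 8 of the 9 fits that left out 1 array: the adjusted p was 0.0538 to 0.138 in those, and 0.0272 without Dicer knockout replicate 3. Against Dgcr8 knockout eggs the call was lost in 6 of the 9, at 0.0502 to 0.102. In egg RNA a lower level in every egg and a loss from some of the eggs cannot be told apart, here or below.

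The median absolute log2 change over all genes tested was 0.107 in Dicer knockout against wild-type eggs. Of these genes, 19.2% changed by more than Myo10 and 17.0% by more than Spire2 in Dicer knockout eggs, whatever the direction. The pooled SD within genotypes was 0.069 for Myo10 and 0.074 for Spire2, against a median of 0.124 over all genes, so shifts of this size were larger than the spread between replicates.

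**Figure D2:**
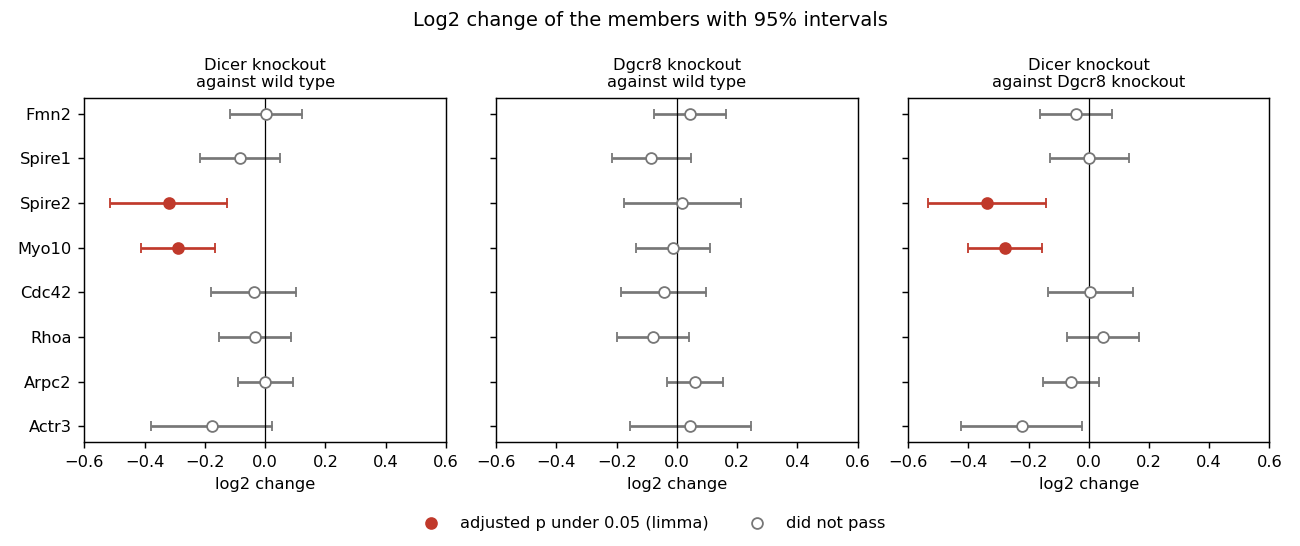
Log2 change of the 8 measured genes in Dicer knockout against wild type, Dgcr8 knockout against wild type and Dicer knockout against Dgcr8 knockout, with 95% intervals from limma; filled points had an adjusted p under 0.05. Myo10 (-0.29 and -0.28) and Spire2 (-0.32 and -0.34) are filled in both comparisons of the Dicer knockout, and none is filled for Dgcr8 knockout against wild type.

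The upstream sequences of these 2 genes are shown because they are the members called lower in Dicer knockout eggs. Fmn2, the partner of Spire2 in the cytoplasmic mesh, is shown for contrast. Among the 3 Dicer knockout arrays the 2 genes ran in opposite order: Spire2 was lowest in replicate 2 and Myo10 in replicate 3. Each window runs from 250 bases before to 50 after an annotated start (RefSeq, GRCm38.p6, both genes and Fmn2 on the plus strand), and RefSeq lists 2 starts for Myo10. Capitals mark GC boxes (GGGCGG or CCGCCC, the core bound by Sp1-type factors) and TATA boxes (TATAAA or TTTATA) on either strand.
Myo10, upstream start, chr15:25622300-25622599: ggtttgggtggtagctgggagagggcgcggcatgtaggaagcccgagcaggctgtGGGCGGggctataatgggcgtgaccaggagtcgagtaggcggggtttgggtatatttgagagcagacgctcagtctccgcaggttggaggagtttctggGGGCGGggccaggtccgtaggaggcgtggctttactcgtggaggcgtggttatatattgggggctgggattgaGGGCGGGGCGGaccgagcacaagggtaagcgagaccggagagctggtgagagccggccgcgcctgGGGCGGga
Myo10, downstream start, chr15:25752956-25753255: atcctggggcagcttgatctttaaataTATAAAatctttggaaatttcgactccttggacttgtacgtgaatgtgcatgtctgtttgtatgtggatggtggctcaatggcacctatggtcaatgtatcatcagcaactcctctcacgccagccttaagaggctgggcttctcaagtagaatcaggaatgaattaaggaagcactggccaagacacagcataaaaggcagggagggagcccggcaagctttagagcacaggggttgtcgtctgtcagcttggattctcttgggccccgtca
Spire2, chr8:123332463-123332762: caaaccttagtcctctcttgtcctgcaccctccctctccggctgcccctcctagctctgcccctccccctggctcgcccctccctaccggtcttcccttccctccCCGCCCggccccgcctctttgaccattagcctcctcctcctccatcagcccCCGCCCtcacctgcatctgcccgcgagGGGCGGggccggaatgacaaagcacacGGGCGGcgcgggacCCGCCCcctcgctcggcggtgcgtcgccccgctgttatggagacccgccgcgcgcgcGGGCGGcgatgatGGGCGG
Fmn2, chr1:174501575-174501874: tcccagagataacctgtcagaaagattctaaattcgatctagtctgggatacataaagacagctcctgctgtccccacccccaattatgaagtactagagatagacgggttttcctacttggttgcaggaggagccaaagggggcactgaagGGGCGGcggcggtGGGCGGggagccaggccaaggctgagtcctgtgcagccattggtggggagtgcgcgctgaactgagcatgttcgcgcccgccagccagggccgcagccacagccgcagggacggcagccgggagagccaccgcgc
Spire2 has 7 GC box matches and the upstream Myo10 start has 5, of which 2 overlap by a base. At least 1 match is found in 35.7% of the 32851 windows in the table and 4 or more in 5.49%. The downstream Myo10 start has 0 GC box matches and 1 TATA box match, which lies near the upstream end of its window, far from the start. A TATA box match is found in 13.6% of windows, and Cdc42 and 1 of the Rhoa windows also have 1 each. The GC content of the downstream Myo10 window is 48.0%, against 64.7% at the upstream start. GC boxes are not particular to the genes that fell: Fmn2 has 2, Arpc2 has 3, Cdc42 has 2, Actr3 has 1, and the Rhoa windows have 0 and 4. Matches describe these windows and say nothing of binding, and the probe set cannot tell which Myo10 start was in use.

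Fmn2 (Entrez gene 54418, probe set 10351971) encodes Formin-2, the nucleator without which mouse oocytes fail to bring the spindle to the cortex. Its signal was 10.49, 10.38 and 10.43 in Dicer knockout arrays, 10.46, 10.41 and 10.56 in Dgcr8 knockout arrays, and 10.47, 10.43 and 10.40 in wild-type arrays. The 3 genotypes overlapped. The log2 change was 0.0019 in Dicer knockout eggs, with a 95% interval of -0.12 to 0.12, or 0.922- to 1.09-fold (limma adjusted p 0.991). It was 0.043 in Dgcr8 knockout eggs, with an interval of -0.075 to 0.16.

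Spire1 (Entrez gene 68166, probe set 10459552), the paralogue of Spire2 and its partner in the mesh, read 9.48, 9.46 and 9.44 in Dicer knockout arrays, 9.47, 9.38 and 9.52 in Dgcr8 knockout arrays, and 9.52, 9.51 and 9.59 in wild-type arrays. All 3 Dicer knockout values lay below the wild-type ones, but the distance was small: the log2 change was -0.083, with an interval of -0.22 to 0.049 (limma adjusted p 0.476). In Dgcr8 knockout eggs, where 1 array overlapped the wild-type range, it was -0.085, with an interval of -0.22 to 0.047. Dicer and Dgcr8 knockout eggs differed by 0.0020, with an interval of -0.13 to 0.13. Whether the changes of Spire1 and Spire2 differ from each other was not tested.

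Neither Cdc42 nor Rhoa, the GTPases of the cortex and the contractile ring, passed in either knockout. Cdc42 (Entrez gene 12540, probe set 10517559) had signals of 10.67, 10.63 and 10.56 in Dicer knockout arrays, 10.53, 10.56 and 10.76 in Dgcr8 knockout arrays, and 10.69, 10.66 and 10.63 in wild-type arrays. Its log2 change was -0.039 in Dicer knockout eggs (95% interval -0.18 to 0.10) and -0.044 in Dgcr8 knockout eggs (-0.19 to 0.097), so the groups were not told apart. Rhoa (Entrez gene 11848) was read by 2 probe sets. Probe set 10515493, which stands for the gene in the test, read 10.97, 10.98 and 10.96 in Dicer knockout arrays, 10.84, 10.88 and 11.05 in Dgcr8 knockout arrays, and 10.99, 11.01 and 11.01 in wild-type arrays. Its 3 Dicer knockout values lay just below the wild-type ones, by a log2 change of -0.033 with a 95% interval of -0.15 to 0.087. Probe set 10588893 read 10.79, 10.76 and 10.75 in Dicer knockout arrays, 10.63, 10.48 and 10.83 in Dgcr8 knockout arrays, and 10.70, 10.84 and 10.79 in wild-type arrays. Its change in Dicer knockout eggs was -0.0069, with an interval of -0.19 to 0.17, from a fit to probe sets in place of genes. In Dgcr8 knockout eggs the changes were -0.080 (-0.20 to 0.040) and -0.13 (-0.31 to 0.050). After quantile normalization of the deposited values the Dicer knockout changes of Cdc42 and of Rhoa probe set 10515493 became -0.10 each. Neither was called (limma adjusted p 0.249 and 0.183).

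Cdc42 and Rhoa varied most among the Dgcr8 knockout arrays. For Cdc42 and for Rhoa probe set 10515493, Dgcr8 knockout replicate 3 was the highest of all 9 arrays and replicates 1 and 2 were the 2 lowest. For Rhoa probe set 10588893, replicate 3 ranked 2 of 9 and replicates 1 and 2 were again the lowest. The SD in Dgcr8 knockout eggs was 0.12 for Cdc42 and 0.11 and 0.18 for the Rhoa probe sets, against 0.031, 0.014 and 0.075 in wild-type eggs. Fmn2 and Arpc2 were also highest of the 9 in Dgcr8 knockout replicate 3, where 6 of the 8 members lay above their wild-type mean. The median deviation of Dgcr8 knockout replicate 3 from the wild-type mean was 0.036 over the 8 members and -0.011 over all genes tested, and without this array 0 of 8 members were called in Dgcr8 knockout against wild-type eggs. The log2 changes then moved to -0.12 for Cdc42 and -0.14 for Rhoa, against -0.044 and -0.080 with it.

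**Figure D3:**
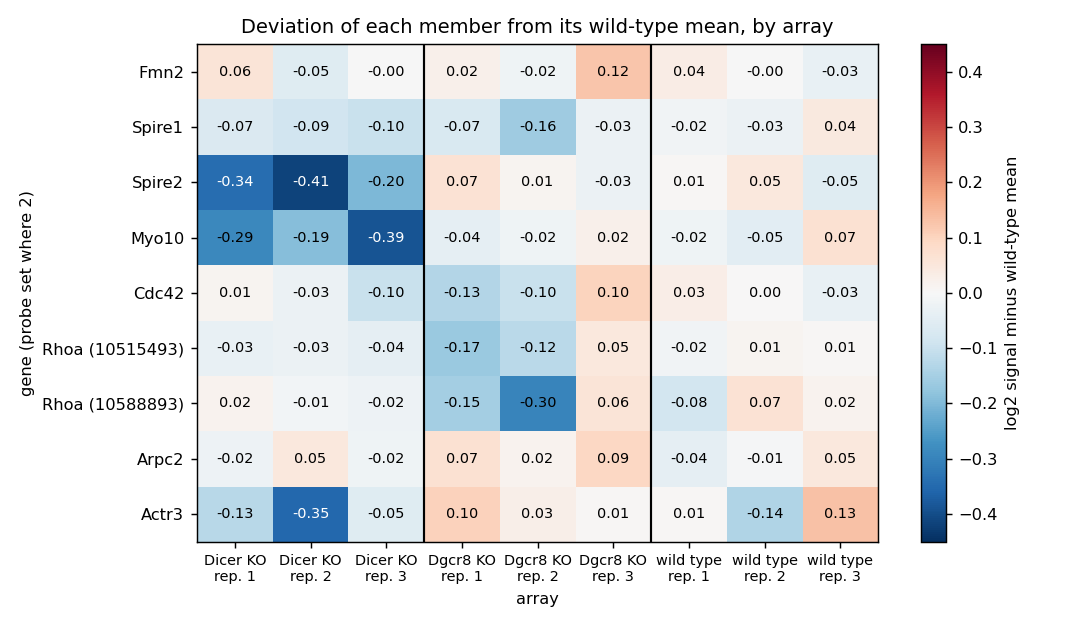
Log2 signal of each member probe set minus its wild-type mean, with a column for each of the 9 arrays and a row for each probe set; blue is lower and red is higher. Spire2 and Myo10 are blue in the 3 Dicer knockout columns (-0.415 to -0.193), and the Cdc42 and Rhoa rows are blue in Dgcr8 knockout replicates 1 and 2 and red in replicate 3.

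The 2 measured subunits of the Arp2/3 complex also did not pass. Arpc2 (Entrez gene 76709, probe set 10347297), a subunit of the core that binds the mother filament, read 11.03, 11.10 and 11.04 in Dicer knockout arrays, 11.13, 11.07 and 11.15 in Dgcr8 knockout arrays, and 11.02, 11.05 and 11.10 in wild-type arrays. It had the narrowest interval of the 8 genes: the change in Dicer knockout eggs was 0.0010, between 0.938- and 1.07-fold. In Dgcr8 knockout eggs it was 0.059, between 0.977- and 1.11-fold. After quantile normalization of the deposited values the Dicer knockout changes of Arpc2 and Fmn2 turned to -0.061 for each, still without a call (adjusted p 0.392 and 0.443).

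Actr3 (Entrez gene 74117, probe set 10357332), the Arp3 subunit that with Arp2 seeds the branch, was the noisiest of the 8, with a pooled SD of 0.123. It read 9.87, 9.64 and 9.94 in Dicer knockout arrays, 10.10, 10.02 and 10.0006 in Dgcr8 knockout arrays, and 10.0013, 9.86 and 10.13 in wild-type arrays. The log2 change in Dicer knockout eggs was -0.18 ± 0.09 (SE), with an interval of -0.38 to 0.023 (limma adjusted p 0.273). It was -0.090 without Dicer knockout replicate 2 and -0.11 without wild-type replicate 3. Against Dgcr8 knockout eggs every Dicer knockout value was lower, by -0.22 ± 0.09 (SE), with a 95% interval of -0.42 to -0.021. The unadjusted limma p was 0.0335, but this did not pass either (limma adjusted p 0.148). The change was -0.13 without Dicer knockout replicate 2.

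Across the 8 genes the Dicer knockout changes were mostly small and negative: 6 of 8 were below 0, with a median of -0.061, against -0.027 over all genes tested. After quantile normalization 8 of 8 were below 0, with a median of -0.11, against -0.041 over all genes. Without Dicer knockout replicate 3 the medians were -0.053 over the members and -0.042 over all genes, and without Dicer knockout replicate 1 they were -0.078 and -0.014. The genotypes did not overlap for 4 members, all lower in Dicer knockout than in wild-type eggs (Myo10, Spire2, Spire1 and Rhoa, the last by probe set 10515493 but not by 10588893), where 26.2% of all genes did not overlap in either direction and 16.1% were lower. In Dgcr8 knockout eggs 0 of 8 did not overlap, where 6.54% of all genes did not, and the median change was 0.0025. Between the knockouts 3 members did not overlap, all lower in Dicer knockout eggs (Myo10, Spire2 and Actr3), where 26.1% of all genes did not overlap and 15.9% were lower. For the 6 members not called in Dicer knockout against wild-type eggs, the 95% intervals together spanned 0.769- to 1.09-fold. For all 8 members in Dgcr8 knockout against wild-type eggs they spanned 0.860- to 1.18-fold. For the 6 members not called between the knockouts they spanned 0.746- to 1.12-fold. The median half-width of an interval was 0.13 on the log2 scale, against 0.23 over all genes.

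Transcripts whose profile over the 9 arrays was most like that of a called member are named by Pearson's r, as a description with no test, and all values share the 9 arrays. For Myo10 they were Psg17, a pregnancy-specific glycoprotein (r 0.993), Ksr1, a scaffold of the Raf-MEK-ERK cascade (0.989), and Gcnt2, a glycosyltransferase (0.985). For Spire2 they were Brms1l, a component of Sin3 histone deacetylase complexes (0.989), Dusp11, an RNA phosphatase (0.983), and Tac2, a tachykinin precursor (0.977). Their log2 changes in Dicer knockout against wild-type eggs, whose direction the choice by likeness to a lower gene fixes, were -1.16 for Gcnt2, -0.80 for Psg17, -0.78 for Brms1l, -0.72 for Tac2, -0.65 for Ksr1 and -0.25 for Dusp11.

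The other genes of actin assembly were read from 7 lists, with 118 genes tested, and 6 of the lists are described one by one. In Dicer knockout eggs 8 rose and 9 fell, 14.4% of the list genes against 11.3% of all genes, of which 4.87% rose and 6.47% fell. The median log2 change was -0.059 over the list genes, against -0.027 over all genes tested. After quantile normalization 8 rose and 15 fell. In Dgcr8 knockout eggs 0 of 118 passed limma's test, 1 had an unadjusted p under 0.05, and the median change was -0.00012. Several list genes moved by more than any of the 8 members.

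Among 12 other formins and nucleators, 2 rose and 1 fell in Dicer knockout eggs. Cobl, a nucleator built on WH2 domains like the Spires, was at 6.41 ± 0.37 in Dicer knockout and 7.47 ± 0.07 in wild-type eggs (SD, n = 3 each), a log2 change of -1.06 (limma adjusted p 0.00207). The formin Fmn1, the paralogue of Fmn2, was at 8.59 ± 0.23 in Dicer knockout and 7.99 ± 0.17 in wild-type eggs, a change of 0.60 (adjusted p 0.0162). Fmnl2, a formin of protruding cell edges, rose by 0.41 (adjusted p 0.0350). The Fmn1 call was lost without Dicer knockout replicate 1 or 3 or wild-type replicate 3, at adjusted p of 0.0533 to 0.0682, and the Fmnl2 call in 6 of 9 fits without 1 array, at 0.0516 to 0.129.

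None of the 5 other measured Arp2/3 subunits passed limma's test in Dicer knockout eggs, and 0 had an unadjusted p under 0.05. Their log2 changes ran from -0.096 for Arpc5l to 0.18 for Arpc5. Of 19 genes that activate or inhibit the complex, Wasf2, the WAVE2 activator downstream of Rac, fell by 0.19 (adjusted p 0.0375), and the other 18 did not pass. The Wasf2 call was lost in 6 of 9 fits without 1 array, at 0.0542 to 0.146.

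The other myosins held some of the largest changes. Of 20, 3 rose and 1 fell. Myh10, the heavy chain of nonmuscle myosin IIB, was at 8.63 ± 0.29 in Dicer knockout and 7.11 ± 0.12 in wild-type eggs (SD, n = 3 each), a log2 change of 1.52 (limma adjusted p 0.000566). Myo6, which walks towards the minus ends of filaments, rose by 1.29 (adjusted p 0.000156), and Myo19, a mitochondrial myosin, by 0.73 (adjusted p 0.000186). Myo1e, a membrane-bound class I myosin, had a change of -0.86 (adjusted p 0.000115). Each of these calls held with any 1 array left out.

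Of 28 actins and actin-binding proteins 2 rose and 2 fell. Coro1c, a coronin, was at 10.76 ± 0.03 in Dicer knockout and 9.26 ± 0.23 in wild-type eggs (SD, n = 3 each), a log2 change of 1.501 (limma adjusted p 2.55e-05). Tmsb10, which sequesters actin monomers, rose by 1.46 (adjusted p 0.00104). The crosslinker Actn1 had a change of -0.79 (adjusted p 0.00106) and the profilin Pfn2 of -0.46 (adjusted p 0.0144). The Pfn2 call was lost without wild-type replicate 3 (0.0610).

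Of 16 cortex, polarity and vesicle partners 1 rose and 2 fell. Rab11b, a GTPase of recycling vesicles, was at 9.64 ± 0.06 in Dicer knockout and 8.17 ± 0.05 in wild-type eggs (SD, n = 3 each), a log2 change of 1.46 (limma adjusted p 0.000103). These values are from its brightest probe set. The Rab11b call held under all 19 alternatives, but the lowest change among them was 0.694, against at least 1.434 with any 1 array left out. Its highest limma adjusted p, 0.00165, came when the probe sets of a gene were averaged. Rab11b probe sets are not reported here one by one. Prkci, the atypical protein kinase C of the Par polarity complex, had a change of -0.44 (adjusted p 0.00404), and the scaffold Dlg1 of -0.43 (adjusted p 0.0199). The Dlg1 call was lost in 4 of 9 fits without 1 array, at 0.0532 to 0.0812.

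**Figure D4:**
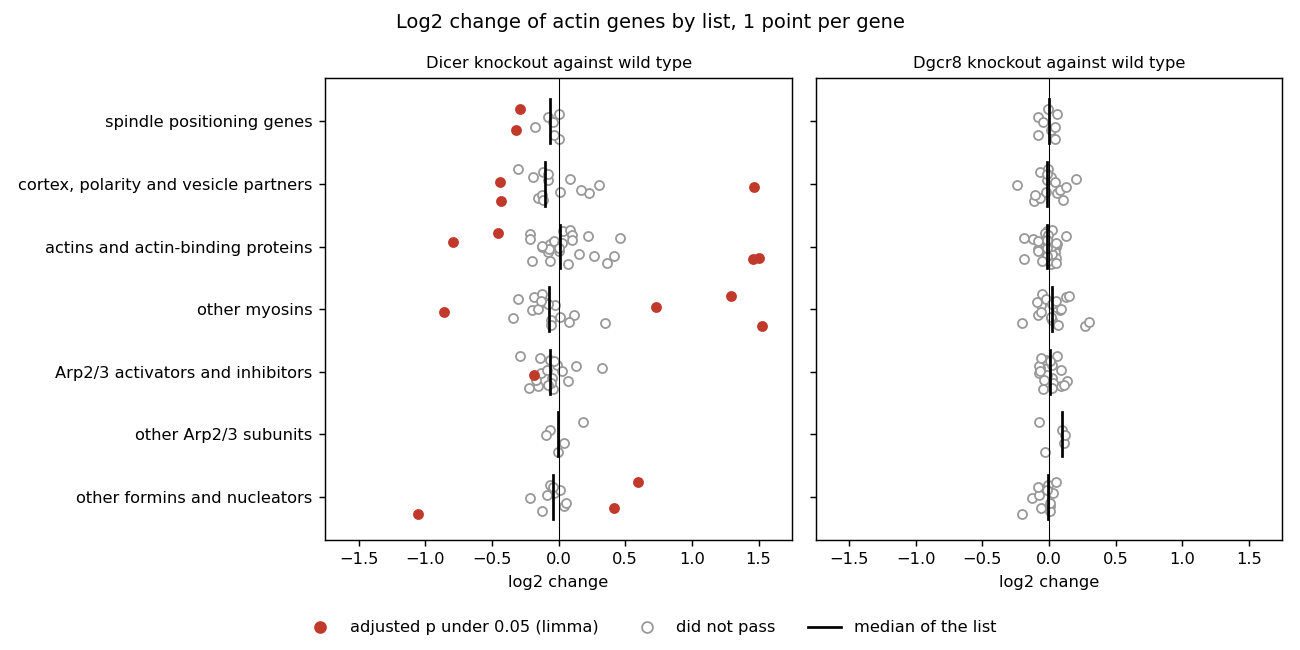
Log2 change in Dicer knockout against wild type and in Dgcr8 knockout against wild type, 1 point per gene, for the 8 spindle positioning genes and 6 lists of other actin genes; filled points had a limma adjusted p under 0.05 and black bars are list medians. In Dicer knockout eggs Cobl (-1.06) is the lowest and Myh10 (1.52) the highest point, and no gene is filled for the Dgcr8 knockout.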

How the data were processed

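RNA of metaphase II eggs was hybridised to 9 arrays, 3 per genotype. The deposited values are log2 signals per probe set, made by the authors with GCRMA (background correction, normalization between arrays and summary of probes), per the submitters' processing notes; neither its version nor its settings are given in the sources used here. No further scaling was applied. Probe sets were named through GEO's platform annotation: 21789 carry 1 gene, 1621 several, and 12147 are unnamed here. Each of 19938 genes was taken by its brightest probe set, and 17324 genes with a signal of at least 4 in at least 3 of 9 arrays were tested. All 9 arrays entered 1 linear model without covariates (limma 3.58.1, R 4.3.3), whose two-sided moderated tests used eBayes with a trend and robust estimation (through statmod 1.5.0), and p-values were adjusted over all genes (Benjamini-Hochberg, called under 0.05). Precision is limited by the number of arrays. The replicates are labelled biological, but nothing says which animals they came from.

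The members and lists were chosen with earlier results of these data known. The genes of 1 list are counted in the totals but not reported here one by one. Named are all members, up to 4 called genes per list by adjusted p in Dicer knockout against wild type, the targeted genes, and the 3 genes most correlated with each called member, skipping predicted and RIKEN-type names. 19 alternatives per result changed the filter, scaling, probe set, eBayes settings, arrays, weights or block, or left out 1 array.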

Additional observations from a re-analysis of the deposited data

How the results depend on the processing

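Of 19 alternatives, the 2 members called in Dicer knockout against wild-type eggs became 1, Myo10, when each array was centred on its median, when the arrays of the 2 groups alone were fitted, and with a replicate block. Against Dgcr8 knockout eggs the 2 became 1 with the arrays of the 2 groups alone and with a replicate block. Leaving out 1 array gave 1 to 2 members in both comparisons. The gene lost was Spire2 each time, at limma adjusted p up to 0.138 and 0.102, and the cause was not tested. Some of these fits had fewer arrays, while those with centred arrays or a replicate block kept all 9. Myo10 kept its call and direction under all 19 in both. In Dgcr8 knockout against wild-type eggs no alternative called a member or another actin gene. The 17 other actin genes called in Dicer knockout against wild-type eggs ranged from 11 (without Dicer knockout replicate 1 or without wild-type replicate 3) to 21 with 1 array left out, and quantile normalization gave 23, of which 8 were higher and 15 lower against 8 and 9; 10 of the 17 were called under every alternative. The 20 called against Dgcr8 knockout eggs (10 higher and 10 lower) became 26 after quantile normalization (9 higher and 17 lower). With 1 array left out they ranged from 12 (without Dgcr8 knockout replicate 1) to 23. They were 13 without Dicer knockout replicate 1 or without Dgcr8 knockout replicate 2. Over all genes tested, the 1964 called against wild type became 1238 without wild-type replicate 3, the 2321 called against Dgcr8 knockout became 1511 without Dgcr8 knockout replicate 1, and the 4 called in Dgcr8 knockout against wild type ranged from 2 to 6. Arrays that share a replicate number deviated together at r of -0.235 to 0.112 (9 pairs, 1 over 0.1), so the numbers were not taken as pairs, and the block gives counts with no further reading. Depth has no meaning for these arrays, and probe-level signals over background were not analysed here.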
